A study of Mus musculus with 24 samples.

Results

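The genes described here belong to the BCL2 family, which sets whether a cell keeps its mitochondria intact or commits to apoptosis. They are 10 named genes: the guardians Bcl2, Bcl2l1 and Mcl1, the pore-forming effector Bak1, and the BH3-only genes Bid, Bcl2l11, Bbc3, Pmaip1, Bmf and Bik. They were taken from 18193 genes that had at least 1 probe set annotated to a single gene, and 9 of the 10 were among the 11208 genes bright enough to test. Bik was the exception. Each gene is given by its brightest probe set, judged by the mean of the 24 arrays, and its other probe sets served as a check.

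The Affymetrix Mouse Genome 430 2.0 array was used to measure RNA of B cells sorted from the spleens of female C57BL/6 mice, with 8 groups and 3 arrays in each. Follicular B cells (intermediate for CD21, positive for CD23) and marginal zone B cells (high for CD21, low for CD23) came from mice of 8 to 10 weeks, and both gates required B220 and no AA4.1. The other sorted groups came from mice given NP-CGG/alum at that age, an immunization against the hapten NP. Memory cells were taken on day 7 and on day 40, germinal center cells on the same days, and plasma cells on day 7. All of these bound the hapten analogue NIP and were B220+. Memory cells were gated as IgG1-positive with CD38 and without peanut agglutinin (PNA) binding, germinal center cells as IgG1-positive with dull CD38 and PNA binding, and plasma cells as IgG1low, CD138+ and Igλ+. The last group was sorted follicular cells kept for 6 h with 10 µg/ml of an F(ab')2 antibody to IgM and 2 µg/ml of an antibody to CD40. No follicular cells cultured without these antibodies were analysed here, so culture and stimulation cannot be told apart. The naive cells were also cleared of CD95-, CD43-, CD138- and CD11b-positive cells before the sort, which was not done for the immunized groups. The labels do not say whether replicates came from separate mice, so the p-values measure the spread between these arrays, which may in part be technical.

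Guardian proteins hold the effectors BAK and BAX in check on the outer mitochondrial membrane. BH3-only proteins carry stress signals: they occupy the groove of the guardians or activate the effectors directly, and the effectors then open the membrane so that cytochrome c leaves and caspases are switched on. In B cells, BCL2 is known for keeping resting naive and memory cells alive. BCL-XL (from Bcl2l1) follows receptor and CD40 signals, MCL1 is required in germinal center and plasma cells, and BIM (from Bcl2l11) removes autoreactive and surplus cells.

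The values are log2 signals, so a difference of 1 is a doubling. A change is called here when its Benjamini-Hochberg adjusted p over all genes tested was under 0.05 and its size on the log2 scale was at least 1. In sorted bulk RNA, fewer cells of a type and less RNA per cell cannot be told apart. Signals were between 2.15 and 16.43. Array medians were between 2.39 and 2.86, so a signal close to these is at background, and within-group correlations over all probe sets were between 0.974 and 0.996. The 5 plasma cell markers summed to 71.13 to 71.36 in the plasma cell arrays against at most 54.30 elsewhere, and the 5 marginal zone markers to 67.16 to 67.54 in marginal zone arrays against at most 55.01. The 5 germinal center markers summed to 59.13 to 63.33 in the germinal center arrays. In day 7 memory arrays they reached from 32.34 to 54.22, with Gcsam, a germinal center gene, at 9.21 in replicate 1 and at 2.26 and 2.40 in the others. In day 40 memory arrays they summed to 35.19 to 43.87, with Gcsam at 6.33, 7.46 and 2.71, against 28.70 to 29.24 in follicular cells. The 7 myeloid markers summed to 61.57 to 64.08 in plasma cells, 35.95 to 58.06 in day 7 memory cells, 37.98 to 56.13 in day 40 memory cells, 22.84 to 57.56 in day 40 germinal center cells and 23.63 to 25.36 in follicular cells. On each array, 5 of the 7 were above the array median in plasma cells, 4 to 6 in day 7 memory cells, 5 to 6 in day 40 memory cells, 2 to 6 in day 40 germinal center cells and 3 in follicular cells. Of the 7, only Itgam and Adgre1 were at background on all plasma cell arrays, and Lyz2, Csf1r, S100a8, S100a9 and Mpeg1 were not. Only Csf1r was so on all day 7 memory arrays, and only Itgam in each day 40 group. In follicular cells Itgam, Csf1r, S100a8 and S100a9 were at background on all arrays. The 5 T cell markers summed to 13.71 to 20.15 in plasma cells, with only Cd3e and Cd3g at background, against 11.06 in follicular cells. The 3 NK cell markers summed to 7.94 to 15.80 in plasma cells, with only Ncr1 at background, against 6.45 in follicular cells. What part these cells' RNA has in the changes below was not tested.

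All 9 members tested differed among the 8 groups, with adjusted p from 4.48e-16 for Bcl2 to 0.000191 for Bbc3 (limma F test). This was so for 91.3% of all genes tested, so it does not set the members apart. The range of group means differed widely between them: 9.37 for Bcl2, 5.09 for Bcl2l1, 3.59 for Pmaip1, 2.55 for Bmf, 2.31 for Bcl2l11, 2.19 for Bbc3, 2.05 for Bid, 1.96 for Bak1 and 0.70 for Mcl1. Mcl1 was the only tested member with no called change in any comparison.

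**Figure D1:**
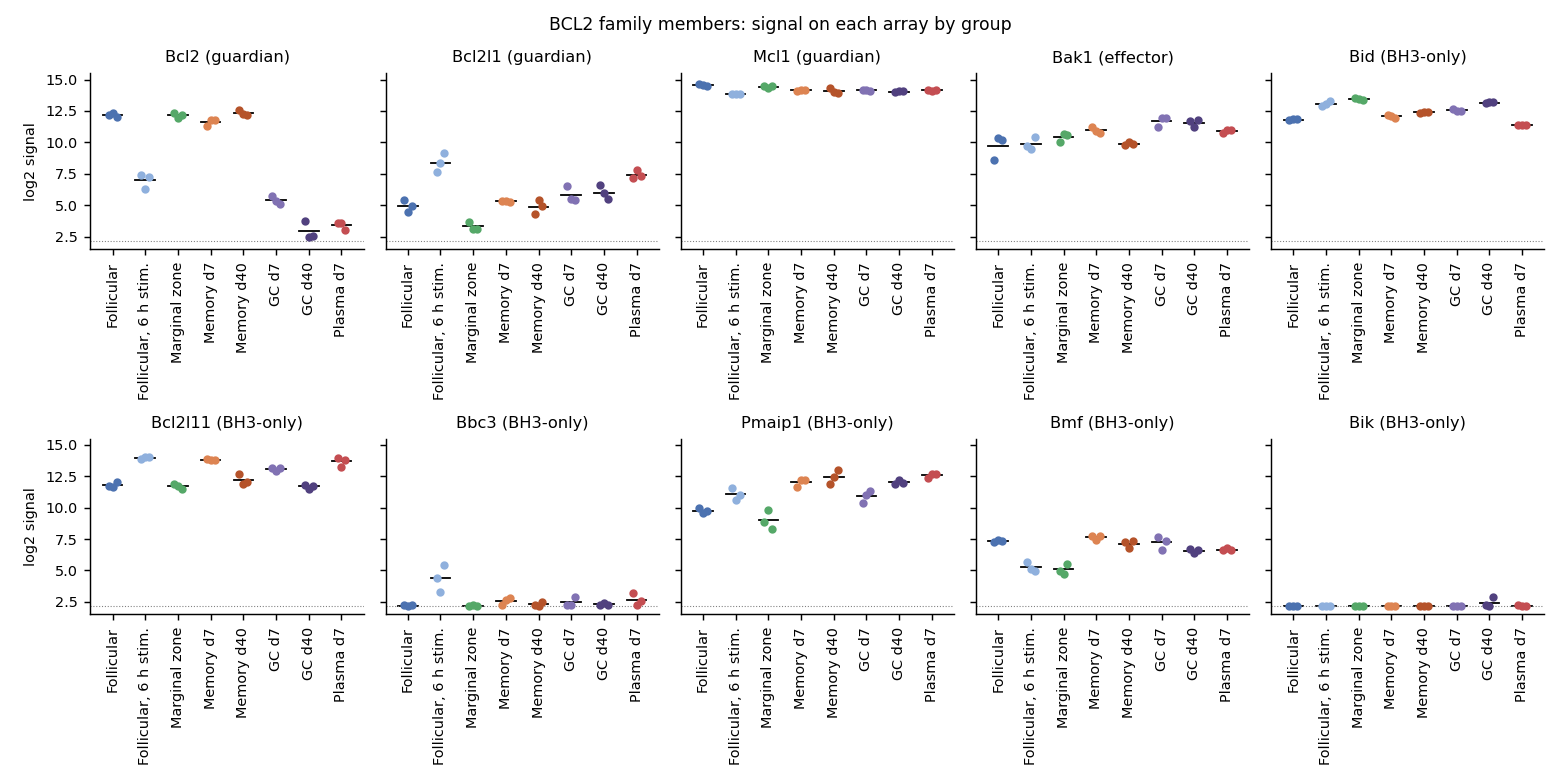
Log2 signal (vertical axis) of each of the 10 genes on each of the 24 arrays, by group (horizontal axis). Points are single arrays, bars are group means of 3 arrays, and the dotted line is the lowest value in the table, 2.15. Bcl2 sits between 11.27 and 12.55 in unstimulated naive cells and in memory cells. It lies between 2.49 and 5.73 in germinal center and plasma cells, while Mcl1 stays between 13.86 and 14.63 throughout. Levels of different genes come from different probes and are not to be compared with each other.

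Set against follicular cells, between 1 and 7 of the 9 members were called, depending on the group. In stimulated cells 7 of the 9 were called, where 39.3% of all genes tested were. Of these, 5 were higher (16.9% of all genes) and 2 lower (22.4%), and the median change of the members was 1.27 against -0.02 over all genes. In the other comparisons with follicular cells that median was between -0.11 in marginal zone and 0.74 in day 7 germinal center cells, against -0.05 to 0 over all genes. In plasma cells 5 were called (42.7% of all genes), 4 of them higher (20.3%) and 1 lower (22.4%). In day 7 germinal center cells 4 were called (31.0% of all genes), 3 higher (14.4%) and 1 lower (16.6%). At day 40 it was 5 (32.4% of all genes), 4 higher (16.8%) and 1 lower (15.6%). In day 7 memory cells 3 were called (18.4% of all genes), all 3 higher (9.18%) and none lower (9.20%). In day 40 memory cells 1 was called (13.8% of all genes), which was higher (7.23%, against 6.54% lower). In marginal zone cells 3 were called (11.0% of all genes), 1 higher (7.21%) and 2 lower (3.83%). The order of the groups rests on the call rule and on which members are tested. With no minimum change 8 members were called in stimulated and in plasma cells. With only genes above the 75th percentile tested, 4 were called in stimulated, plasma and both germinal center groups. Bcl2l1, Bbc3 and Bmf were not tested under that filter, so these counts of 4 are not out of 9. The shares of all genes called under these alternatives are not given here. These comparisons share the 3 follicular arrays, and none of the counts was tested against the background share.

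Between the immunized groups, 1 to 4 of the 9 members were called in each comparison. In germinal center cells against memory cells at day 7, 2 were called (23.7% of all genes), none higher (11.6%) and both lower (12.1%). At day 40 it was 3 (27.9% of all genes), 2 higher (15.3%) and 1 lower (12.6%). From day 7 to day 40 in memory cells, 1 member was called (5.02% of all genes), which was lower (2.28%, against 2.74% higher). In germinal center cells 2 were called over the same interval (5.93% of all genes), none higher (3.58%) and both lower (2.36%). In plasma cells against day 7 memory cells 2 were called (36.6% of all genes), 1 higher (17.9%) and 1 lower (18.7%). Against day 7 germinal center cells 4 were called in plasma cells (38.2% of all genes), 2 higher (18.1%) and 2 lower (20.1%). The germinal center to memory difference itself differed between the days for 1 member, Bcl2, and for 4.95% of all genes, with a lower value at day 40 for 2.03%, as for Bcl2, and a higher one for 2.92%.

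**Figure D2:**
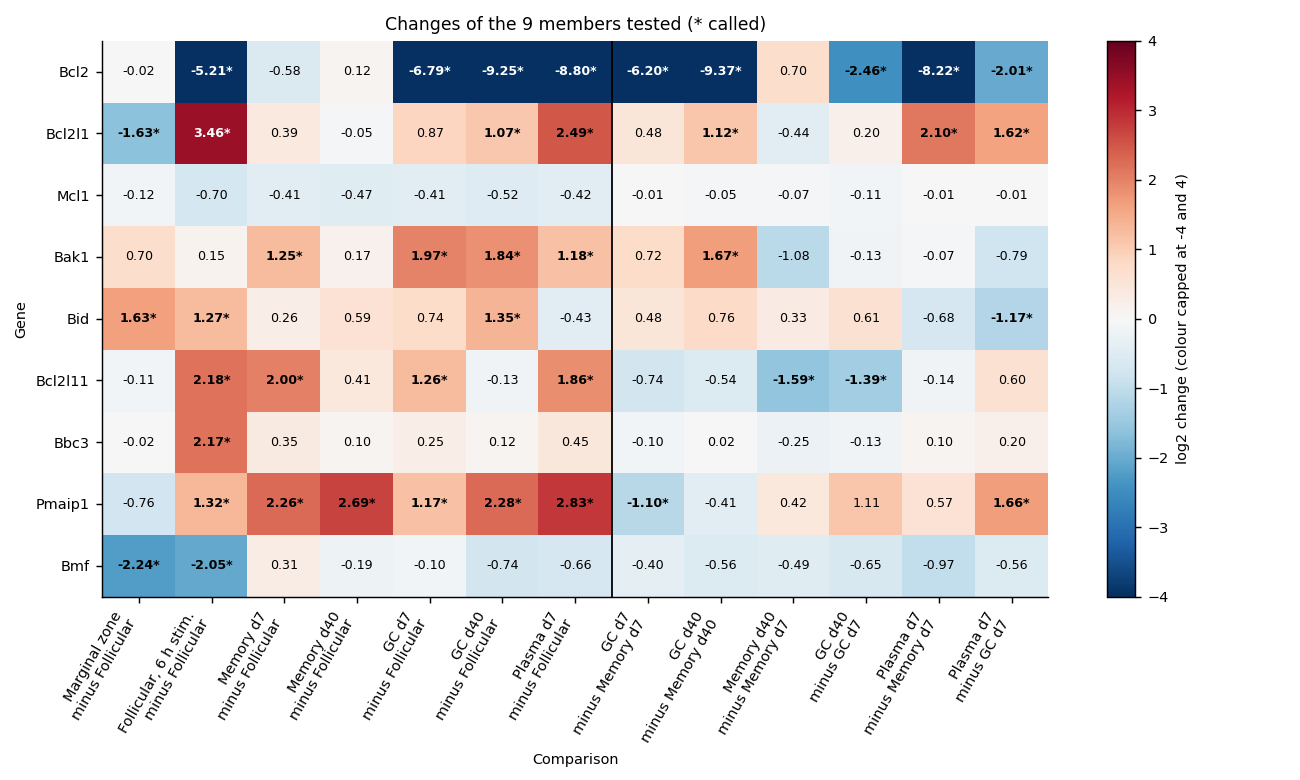
Log2 change of the 9 members tested (rows) in 13 comparisons of 2 groups (columns), left of the line against follicular cells and right of it between the immunized groups. An asterisk and bold type mark called changes, and the colour scale stops at -4 and 4. Bcl2 fell by 5.21 to 9.25 in stimulated, germinal center and plasma cells against follicular cells, and Pmaip1 rose in every group but marginal zone cells.

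Bcl2 encodes the guardian that gave the family its name. On the probe set used it was high in naive and memory cells and low in stimulated, germinal center and plasma cells. Its signal was 12.21, 12.32 and 12.04 in follicular cells, 12.34, 11.96 and 12.20 in marginal zone cells and 12.55, 12.22 and 12.16 in day 40 memory cells. It was 11.27, 11.81 and 11.74 in day 7 memory cells, which lay just under the range of the follicular arrays without a called change (-0.58, SE 0.31, adjusted p = 0.164). Stimulated follicular cells gave 7.38, 6.31 and 7.26, below these naive and memory cells, above the germinal center cells and apart from both. Day 7 germinal center cells gave 5.73, 5.36 and 5.12, plasma cells 3.57, 3.57 and 3.03, and day 40 germinal center cells 3.76, 2.49 and 2.57. Plasma cell and day 40 germinal center arrays overlapped, and each was close to background, so the folds given next depend on the low end of the scale.

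Against follicular cells, Bcl2 fell by 6.79 (SE 0.31, adjusted p = 4.37e-12) in day 7 germinal center cells, a 110-fold lower signal. It fell by 9.25 (SE 0.31, adjusted p = 2.65e-14) in day 40 germinal center cells and by 8.80 (SE 0.31, adjusted p = 1.66e-14) in plasma cells. In the stimulated cells it fell by 5.21 (SE 0.31, adjusted p = 6.70e-11), a 36.9-fold lower signal after 6 h. Against memory cells of the same day it fell by 6.20 (SE 0.31, adjusted p = 2.30e-11) at day 7 and by 9.37 (SE 0.31, adjusted p = 3.85e-14) at day 40. Each of these was called on all 5 Bcl2 probe sets. The sequence upstream of this gene is shown because no other member had so wide a range. The 250 bases before the start of Bcl2 in RefSeq (GRCm38.p6, chr1:106714291-106714540, minus strand) are 74.8% G or C:

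Bcl2: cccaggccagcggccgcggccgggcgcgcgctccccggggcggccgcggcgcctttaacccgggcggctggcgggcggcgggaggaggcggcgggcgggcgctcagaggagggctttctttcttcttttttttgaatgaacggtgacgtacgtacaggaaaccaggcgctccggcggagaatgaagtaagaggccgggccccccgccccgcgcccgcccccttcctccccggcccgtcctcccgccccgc

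The differences among the low groups rest on the probe set used. There, Bcl2 fell by 2.46 (SE 0.31, adjusted p = 1.85e-05) from day 7 to day 40 germinal center cells, and it fell by 2.01 (SE 0.31, adjusted p = 1.75e-05) from day 7 germinal center cells to plasma cells. On the other 4 probe sets neither change was called: from day 7 to day 40 germinal center cells they gave -0.80, -0.65, -0.27 and -0.01, and from day 7 germinal center cells to plasma cells -0.16, -0.13, -0.07 and 0.11. These 4 probe sets read day 7 germinal center cells at means of 2.39 to 3.60, near background, where the one used read 5.40. The probe sets also parted over memory cells. Probe set 1440770_at read 8.00, 9.16 and 8.49 in day 7 memory cells against 11.33, 11.92 and 11.62 in follicular cells, a called change of -3.07 (SE 0.31, adjusted p = 4.74e-07), and 1443837_x_at gave -2.70 (adjusted p = 0.000173). Probe set 1440770_at gave -1.53 (SE 0.31, adjusted p = 0.00124) for day 40 memory cells against follicular cells and a called rise of 1.54 (adjusted p = 0.00349) between the days, and 1443837_x_at gave -1.44 at day 40 (SE 0.46, adjusted p = 0.0297), where the probe set used gave 0.12 (SE 0.31, adjusted p = 0.877). Whether Bcl2 in memory cells equals or lies below follicular cells therefore differed by probe set.

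Bcl2l1 encodes BCL-XL, a guardian that follows receptor signals. It was highest in stimulated cells, at 7.67, 8.34 and 9.17, and next in plasma cells, at 7.20, 7.76 and 7.31. These overlapped each other and lay above every other array. Germinal center cells gave 6.50, 5.48 and 5.43 at day 7 and 6.59, 5.93 and 5.48 at day 40. Follicular cells gave 5.40, 4.43 and 4.97, and both memory groups lay between 4.29 and 5.40. Marginal zone cells were lowest, at 3.67, 3.12 and 3.12, below all others. The 2 groups highest for Bcl2l1, stimulated and plasma cells, were both among the groups low for Bcl2.

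Against follicular cells, Bcl2l1 rose by 3.46 (SE 0.39, adjusted p = 3.84e-07) in stimulated cells, an 11.0-fold higher signal, and by 2.49 (SE 0.39, adjusted p = 1.77e-05) in plasma cells. It also rose in plasma cells against day 7 memory cells (2.10, SE 0.39, adjusted p = 0.000137) and against day 7 germinal center cells (1.62, SE 0.39, adjusted p = 0.0015). In marginal zone cells it fell by 1.63 (SE 0.39, adjusted p = 0.00543), which was not called when each group lost the array with the fewest floor values (-1.30, adjusted p = 0.196), with an offset of 16 added to the linear signals (-0.85, adjusted p = 0.0654) or with the probe sets averaged (-0.41, adjusted p = 0.704). The plasma cell rise over day 7 germinal center cells was not called without those arrays either (1.29, adjusted p = 0.0718). The smaller rises in day 40 germinal center cells, 1.07 (SE 0.39, adjusted p = 0.0278) against follicular cells and 1.12 (SE 0.39, adjusted p = 0.0235) against day 40 memory cells, each rested on single arrays, and with the probe sets averaged they came to 0.28 and 0.29. The first was not called without follicular replicate 2 (0.82) or 3 (1.09) or without day 40 germinal center replicate 1 (0.77) or 2 (1.10), and the second not without day 40 memory replicate 1 (0.83) or day 40 germinal center replicate 1 (0.82). Without follicular replicate 1, day 7 germinal center cells gained a call against follicular cells (1.10, adjusted p = 0.0424). Probe sets 1420887_a_at and 1426191_a_at were at background in every group except plasma and stimulated cells. In plasma cells they read 6.69, 2.22 and 6.81 and 8.00, 2.72 and 8.00, so replicate 2 stood far below the others on both, and in stimulated cells they spread from 2.18 to 7.27. For stimulated against follicular cells the first gave 2.49 (SE 0.95, adjusted p = 0.0323), which was called, and the second 1.27 (SE 0.95, adjusted p = 0.273), which was not. For plasma cells they gave called rises of 3.09 and 4.07. Follicular cells were at background on both, so the size of these changes depends on the low end of the scale, and neither probe set can show a fall from follicular cells.

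Mcl1 encodes the short-lived guardian that germinal center and plasma cells cannot do without. On the probe set used its signal spanned less than 1 log2 unit. It was 14.63, 14.54 and 14.50 in follicular cells, 14.47, 14.35 and 14.50 in marginal zone cells and 13.86 on each of the 3 stimulated arrays. All arrays of the 5 immunized groups lay between 13.92 and 14.30. The lowest group, stimulated cells, differed from follicular cells by -0.70 (SE 0.10, adjusted p = 6.13e-06), which passed the p threshold but not the size required for a call, and differences of the immunized groups from follicular cells were between -0.41 and -0.52 with adjusted p from 0.000181 to 0.00329.

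One Mcl1 probe set gave called changes. Probe set 1416881_at read 13.31, 13.23 and 13.47 in plasma cells, above every array of the other groups, where it was between 11.11 and 12.62. In plasma cells it gave a rise of 1.04 (SE 0.22, adjusted p = 0.000503) against follicular cells, 1.17 (SE 0.22, adjusted p = 0.000194) against day 7 memory cells and 1.82 (SE 0.22, adjusted p = 1.23e-06) against day 7 germinal center cells. The probe set used gave -0.42, -0.01 and -0.01 for the same comparisons. On 1416881_at Mcl1 also fell against follicular cells, by 1.04 (SE 0.22, adjusted p = 0.000603) in stimulated cells and just to the size of a call in day 40 germinal center cells (adjusted p = 0.000922), where the probe set used gave -0.70 and -0.52.

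**Figure D3:**
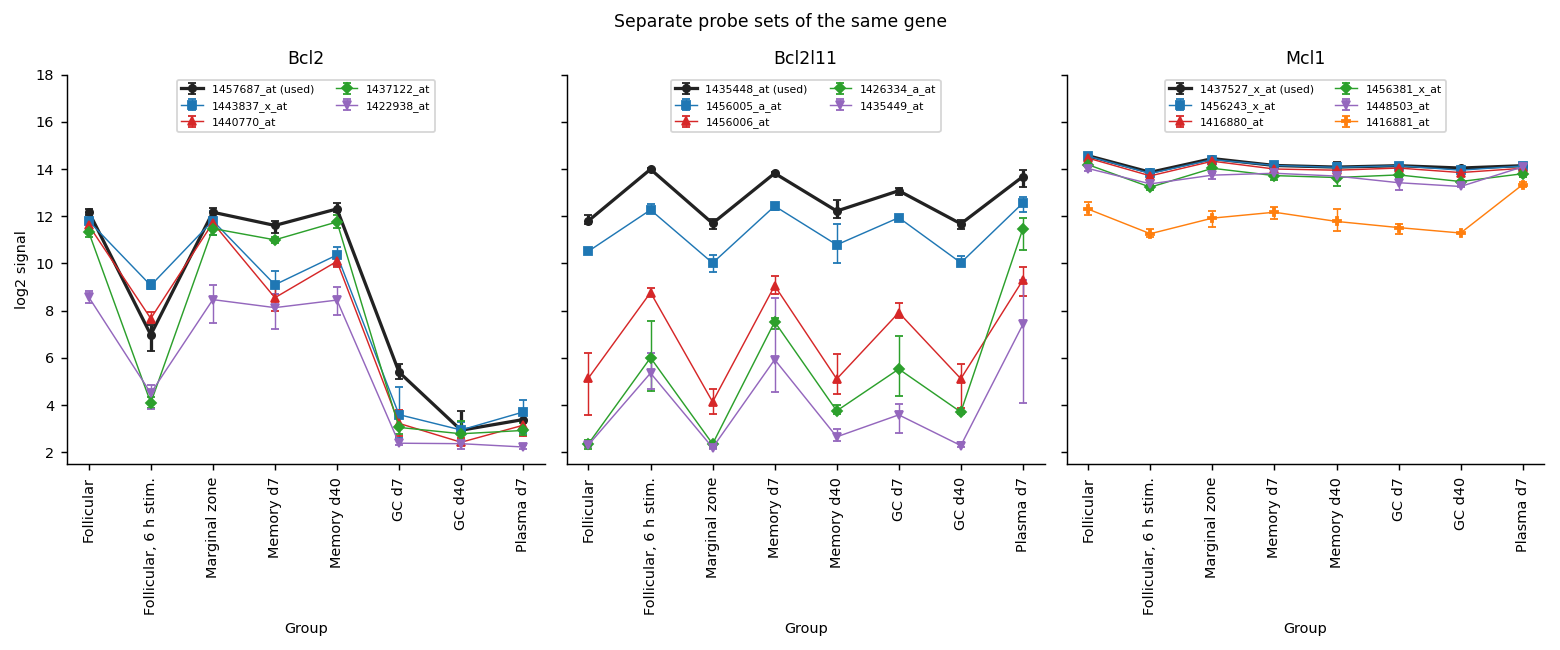
Mean log2 signal (vertical axis) by group (horizontal axis) of every probe set of Bcl2, Bcl2l11 and Mcl1; bars span the lowest to the highest of 3 arrays and the black line is the probe set used. All 5 Bcl2 probe sets are low in germinal center and plasma cells but 2 of them are also lower in memory cells, all 5 Bcl2l11 probe sets are higher at day 7 than at day 40 in memory cells, and Mcl1 probe set 1416881_at is highest in plasma cells at 13.34.

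Bak1 encodes BAK, the effector that forms pores once activated. It was highest in the germinal center, at 11.23, 11.92 and 11.90 on day 7 and 11.69, 11.19 and 11.78 on day 40. Day 7 memory cells gave 11.24, 10.90 and 10.75 and plasma cells 10.74, 10.96 and 10.98. Day 40 memory cells, at 9.81, 10.01 and 9.83, lay below all of these. Follicular cells gave 8.62, 10.35 and 10.18, so replicate 1 stood apart, and they overlapped stimulated cells (9.67, 9.50 and 10.42) and marginal zone cells (9.99, 10.68 and 10.58). Bak1 rose by 1.97 (SE 0.35, adjusted p = 0.000134) in day 7 and by 1.84 (SE 0.35, adjusted p = 0.000239) in day 40 germinal center cells against follicular cells, and by 1.67 (SE 0.35, adjusted p = 0.00071) against day 40 memory cells. It also rose by 1.25 (SE 0.35, adjusted p = 0.0107) in day 7 memory cells and by 1.18 (SE 0.35, adjusted p = 0.00734) in plasma cells. Without follicular replicate 1 these last 2 came to 0.70 (adjusted p = 0.0707) and 0.63 (adjusted p = 0.0625) and were no longer called. Plasma cells lay 0.79 below day 7 germinal center cells (SE 0.35, adjusted p = 0.0658), a difference that was called without day 7 germinal center replicate 1 (-1.02, adjusted p = 0.0358). The second Bak1 probe set read at most 5.81 and gave no called change.

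Bid encodes a BH3-only protein that caspase 8 cleaves, linking death receptors to the mitochondria. Its replicates were the tightest of the members that changed. Marginal zone cells were highest, at 13.52, 13.42 and 13.39, followed by day 40 germinal center cells at 13.12, 13.18 and 13.21 and stimulated cells at 12.91, 13.03 and 13.31. Day 7 germinal center cells gave 12.66, 12.51 and 12.50, day 40 memory cells 12.36, 12.44 and 12.42, and day 7 memory cells 12.18, 12.09 and 11.95. Follicular cells gave 11.77, 11.84 and 11.84, and plasma cells were lowest at 11.39, 11.37 and 11.41. In that order only stimulated and day 40 germinal center arrays overlapped among neighbours. Bid rose by 1.63 (SE 0.10, adjusted p = 6.60e-10) in marginal zone cells, by 1.35 (SE 0.10, adjusted p = 2.50e-09) in day 40 germinal center cells and by 1.27 (SE 0.10, adjusted p = 4.16e-09) in stimulated cells against follicular cells. It fell by 1.17 (SE 0.10, adjusted p = 1.18e-08) in plasma cells against day 7 germinal center cells. Smaller differences passed the p threshold without reaching the size of a call, such as 0.74 (SE 0.10, adjusted p = 6.83e-06) in day 7 germinal center cells and -0.43 (SE 0.10, adjusted p = 0.00121) in plasma cells, both against follicular cells. Probe set 1448560_at also gave called rises in marginal zone, stimulated and day 40 germinal center cells, of 2.85, 2.63 and 2.93, but no called fall in plasma cells against day 7 germinal center cells (-0.54, SE 0.55, adjusted p = 0.45). It gave called rises that the probe set used did not, of 1.52 (SE 0.55, adjusted p = 0.0417) in day 7 memory against follicular cells and of 1.71 (SE 0.55, adjusted p = 0.0161) in day 40 germinal center against memory cells. The remaining probe set read at most 5.70 and gave no called change.

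Bcl2l11 encodes BIM, a BH3-only protein that binds all guardians. It was higher in stimulated cells and in the day 7 groups than in unstimulated naive cells or in day 40 cells. Its signal was 13.90, 14.02 and 14.05 in stimulated cells, 13.87, 13.79 and 13.79 in day 7 memory cells and 13.97, 13.23 and 13.83 in plasma cells. Day 7 germinal center cells followed at 13.17, 12.88 and 13.18. Day 40 memory cells gave 12.70, 11.92 and 12.05 and overlapped follicular cells at 11.69, 11.68 and 12.07. Marginal zone cells (11.88, 11.76 and 11.46) and day 40 germinal center cells (11.83, 11.46 and 11.76) overlapped these too. The 4 low groups and the 4 high groups thus did not overlap, the nearest arrays being 12.70 in day 40 memory cells and 12.88 in day 7 germinal center cells.

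Against follicular cells Bcl2l11 rose by 2.18 (SE 0.20, adjusted p = 3.64e-08) in stimulated cells, by 2.00 (SE 0.20, adjusted p = 5.11e-07) in day 7 memory cells and by 1.86 (SE 0.20, adjusted p = 2.22e-07) in plasma cells. In day 7 germinal center cells it rose by 1.26 (SE 0.20, adjusted p = 4.35e-05). From day 7 to day 40 it fell by 1.59 (SE 0.20, adjusted p = 5.67e-05) in memory cells and by 1.39 (SE 0.20, adjusted p = 0.00011) in germinal center cells. On the other 4 probe sets these day differences were -1.63, -3.95, -3.77 and -3.27 in memory cells, 3 of them called, and -1.90, -2.80, -1.82 and -1.30 in germinal center cells, 2 of them called. Day 40 mice were also older than day 7 mice, so time after immunization and age cannot be told apart.

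A Bcl2l11 probe set of lower signal, 1426334_a_at, put plasma cells well above the rest. It read 11.88, 10.59 and 11.93 in plasma cells, 7.71, 7.22 and 7.65 in day 7 memory cells, 6.93, 4.38 and 5.29 in day 7 germinal center cells and 2.15, 2.51 and 2.45 in follicular cells. On it plasma cells lay 5.93 (adjusted p = 6.98e-08) above day 7 germinal center cells and 3.94 (SE 0.59, adjusted p = 1.25e-05) above day 7 memory cells, where the probe set used gave 0.60 and -0.14 (SE 0.20, adjusted p = 0.619). Probe set 1456005_a_at, which read 12.83, 12.20 and 12.65 in plasma cells and 12.53, 12.47 and 12.28 in day 7 memory cells, gave 0.13 (SE 0.29, adjusted p = 0.756).

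Forkhead factors of the FOXO class are known activators of Bcl2l11 and Bbc3, and the stretch before each gene is shown for that reason. The core searched was GTAAACA, on both strands, in the 250 bases before each start. It was found in 2 of 15 RefSeq promoters of 8 of the members, 1 of Bcl2l11 and 1 of Bbc3. Promoters of Pmaip1 and Bik were not among these 15, so the core was not looked for in every member. Over all genes it was found in 1040 of 32851 promoters, or 3.17%. The member promoters were not drawn in the same way as that set, so the member count is not to be compared with this share. Below, capitals mark the match. The Bcl2l11 stretch is chr2:128125788-128126037 on the plus strand of GRCm38.p6, with the first base of the match 227 bases before the start. The Bbc3 stretch is the part of its promoter around the match, chr7:16310083-16310112 on the plus strand, with the match on the opposite strand. These letters are a description and not a measured site.

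Bcl2l11: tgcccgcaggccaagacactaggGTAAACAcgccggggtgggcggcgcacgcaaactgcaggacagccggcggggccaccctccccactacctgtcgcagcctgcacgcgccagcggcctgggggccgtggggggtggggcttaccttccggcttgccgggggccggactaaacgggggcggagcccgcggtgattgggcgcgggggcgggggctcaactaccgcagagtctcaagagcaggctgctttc

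Bbc3: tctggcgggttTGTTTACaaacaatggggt

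Of the forkhead factors themselves, Foxo1 was 13.17, 13.26 and 13.08 in follicular cells and 10.76, 10.65 and 10.82 in stimulated cells, a fall by 2.43 (SE 0.11, adjusted p = 2.27e-12). It fell by 2.05 (SE 0.11, adjusted p = 1.36e-11) in plasma cells. Foxo3 was 12.96, 12.83 and 12.95 in follicular cells and fell by 2.28 (SE 0.15, adjusted p = 1.04e-09) in day 7 and by 2.66 (SE 0.15, adjusted p = 6.80e-11) in day 40 germinal center cells. Transcript levels say nothing of whether these factors were in the nucleus.

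Bbc3 encodes PUMA, a BH3-only protein known as a p53 target. It was measurable above background mainly in stimulated cells, at 4.38, 3.30 and 5.45. It was at background on all 3 arrays of follicular cells (2.25, 2.15 and 2.23), marginal zone cells and day 40 germinal center cells, and above the array median on 9 of the 24 arrays in all. Outside the stimulated group the highest signal was 3.20, in plasma cell replicate 1. The rise in stimulated cells was 2.17 (SE 0.35, adjusted p = 3.46e-05), and since follicular cells were at background its size depends on the low end of the scale. With 16 added to the linear signals before the logarithm it came to 0.90 and was not called. No other comparison of Bbc3 was called. The gene has a single probe set here, so there was no check.

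Pmaip1 encodes NOXA, a BH3-only protein that pairs mainly with MCL1. It was higher in every antigen-experienced or stimulated group than in naive cells. Follicular cells gave 9.94, 9.61 and 9.70, and marginal zone cells, at 8.83, 9.83 and 8.30, overlapped them. Plasma cells gave 12.38, 12.71 and 12.65, day 40 memory cells 11.88, 12.44 and 12.99 and day 40 germinal center cells 11.87, 12.23 and 11.99. Day 7 memory cells, at 11.65, 12.19 and 12.20, overlapped day 40 germinal center cells, and stimulated cells (11.56, 10.63 and 11.02) overlapped day 7 germinal center cells (10.39, 11.00 and 11.36). No array of these 6 groups fell into the range of the naive cells.

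Against follicular cells Pmaip1 rose by 2.83 (SE 0.35, adjusted p = 9.33e-07) in plasma cells, by 2.69 (SE 0.35, adjusted p = 1.10e-05) in day 40 memory cells and by 2.28 (SE 0.35, adjusted p = 1.94e-05) in day 40 germinal center cells. It rose by 2.26 (SE 0.35, adjusted p = 5.67e-05) in day 7 memory cells, by 1.32 (SE 0.35, adjusted p = 0.00319) in stimulated cells and by 1.17 (SE 0.35, adjusted p = 0.00867) in day 7 germinal center cells. Pmaip1 was the only member called in day 40 memory cells against follicular cells. At day 7 it fell by 1.10 (SE 0.35, adjusted p = 0.016) in germinal center cells against memory cells, and rose by 1.66 (SE 0.35, adjusted p = 0.000431) in plasma cells against germinal center cells. The fall at day 7 was not called without day 7 memory replicate 2 (-1.01, adjusted p = 0.0581), without day 7 memory replicate 3 (adjusted p = 0.0584) or without day 7 germinal center replicate 1 (-0.83), and the day 7 germinal center rise over follicular cells not without replicate 3 of that group (0.94). Marginal zone cells differed from follicular cells by -0.76 (SE 0.35, adjusted p = 0.157), which was called without marginal zone replicate 2 (-1.19, adjusted p = 0.0187). From day 7 to day 40 germinal center cells it differed by 1.11 (SE 0.35), which missed the threshold at an adjusted p of 0.0527 and passed it without day 7 germinal center replicate 3 (1.34, adjusted p = 0.0397). There is a single probe set for this gene.

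Bmf encodes a BH3-only protein released from the cytoskeleton under stress. It was low in marginal zone and stimulated cells and otherwise nearly level. It was 7.26, 7.39 and 7.32 in follicular cells, 4.99, 4.72 and 5.53 in marginal zone cells and 5.70, 5.15 and 4.98 in stimulated cells. The 5 immunized groups lay between 6.38 and 7.76, above both low groups. Bmf fell by 2.24 (SE 0.25, adjusted p = 1.71e-06) in marginal zone cells and by 2.05 (SE 0.25, adjusted p = 1.02e-06) in stimulated cells, 4.73-fold and 4.13-fold lower. Its other probe sets read at most 4.27 and gave no call for either, so both rest on 1454880_s_at. In plasma cells against day 7 memory cells the difference of -0.97 (SE 0.25, adjusted p = 0.00272) lay just short of the size required, and it was called without day 7 memory replicate 2 (-1.07) or plasma cell replicate 2 (-1.02).

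Bik, which encodes the BH3-only protein named BCL2-interacting killer, gave no usable signal. Its brightest probe set was at the lowest value of the table on 20 of the 24 arrays and above the array median on 1, a day 40 germinal center array at 2.87. The other 2 probe sets were at 2.15 on all arrays. It was therefore not tested, and a low transcript level cannot be told apart from a probe set that detects it poorly.

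With the 2 days side by side, germinal center and memory cells differed most in Bcl2. The difference of Bcl2 was -6.20 at day 7 and -9.37 at day 40, and the difference between these was -3.17 (SE 0.44, adjusted p = 0.000106, limma interaction term). Of the 9 members this was the only called difference between days. It was called on probe set 1440770_at as well (-2.34, SE 0.44, adjusted p = 0.00239) but not on the other 3, at -1.91, -1.03 and -0.33 with adjusted p of 0.101, 0.112 and 0.86. Bak1 rose by 1.67 in germinal center cells at day 40 where the day 7 difference of 0.72 (SE 0.35, adjusted p = 0.116) was not called, but the difference between the days was not called by the interaction test (0.95, SE 0.50, adjusted p = 0.322). The difference of Bcl2l11 was -0.74 (SE 0.20, adjusted p = 0.0069) at day 7 and -0.54 (SE 0.20, adjusted p = 0.0368) at day 40, each under the size of a call.

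**Figure D4:**
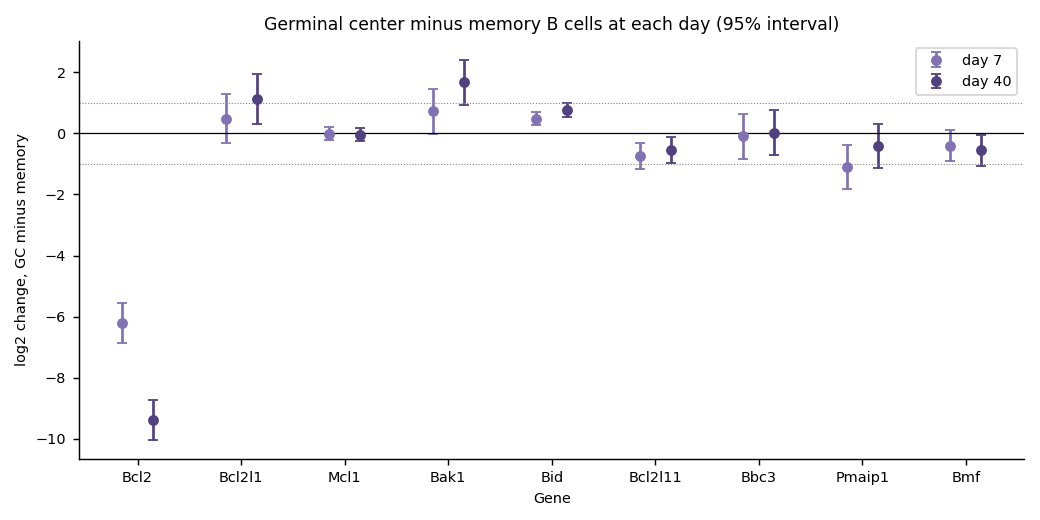
Log2 change of the 9 members (horizontal axis) in germinal center minus memory B cells at day 7 (light) and day 40 (dark), as the limma estimate with its 95% interval from 3 arrays per group; dotted lines mark a change of 1 in size. Bcl2 lies at -6.20 and -9.37, while the estimates of the other 8 members are between -1.10 and 1.67.

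Of 15 further family genes 10 had a probe set of their own and 7 were tested. Bad, a BH3-only gene controlled by growth factor signalling, was 8.31, 9.03 and 8.92 in follicular cells and 4.93, 5.45 and 6.75 in stimulated cells, and fell by 3.04 (SE 0.31, adjusted p = 1.31e-07). In germinal center cells it rose, by 2.16 (SE 0.31, adjusted p = 1.43e-05) at day 7 and by 2.23 (SE 0.31, adjusted p = 8.27e-06) at day 40. Bcl2l2 encodes the guardian BCL-W. It fell by 2.80 (SE 0.39, adjusted p = 7.70e-06) in day 7 germinal center cells, the same direction as Bcl2, but stood higher in plasma cells than in those by 3.42 (SE 0.39, adjusted p = 4.31e-07), with 7.37, 7.01 and 8.00 against 4.23, 4.07 and 3.83. Bcl2l14 rose by 2.54 (SE 0.28, adjusted p = 2.62e-07) in plasma cells from a follicular level near background. Bnip3, a mitochondrial gene known for mitophagy, fell by 5.24 (SE 0.70, adjusted p = 3.02e-06) in plasma cells and by 4.73 (SE 0.70, adjusted p = 4.18e-05) in day 7 memory cells, with plasma cell replicate 2 at 6.11 against 2.61 and 2.64. Across the 7, 2 rose and 1 fell in day 7 germinal center cells (31.0% of all genes were called), none rose and 2 fell in stimulated cells (39.3%), and 2 rose and 2 fell in plasma cells (42.7%), all against follicular cells.

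Downstream of the mitochondria, 12 of 14 caspase and apoptosome genes were tested. In stimulated cells 3 rose and 4 fell, where 16.9% of all genes rose and 22.4% fell, with a median of -0.30 against -0.02 over all genes, the largest being Casp8 (-2.56, SE 0.22, adjusted p = 9.56e-09), Casp9 (-2.52, SE 0.22, adjusted p = 1.11e-08) and Casp6 (-1.93, SE 0.37, adjusted p = 0.00021). Casp8 encodes the caspase of death receptors and Casp9 that of the apoptosome. In plasma cells 1 rose, Cycs, which encodes cytochrome c (2.30, SE 0.23, adjusted p = 6.21e-08), and 1 fell, Casp9 (-1.87, SE 0.22, adjusted p = 4.55e-07). Of all genes 42.7% were called there. In germinal center cells 2 rose and 1 fell at day 7 (31.0% of all genes called) and 2 rose at day 40 (32.4%). In marginal zone cells none of the 12 was called (11.0%).

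All 5 inhibitor of apoptosis genes were tested. Birc3, which encodes an inhibitor acting on receptor complexes, fell by 1.83 (SE 0.13, adjusted p = 2.51e-09) in day 7 germinal center cells and by 1.59 (SE 0.13, adjusted p = 5.42e-09) in plasma cells. Birc5, which encodes survivin, an inhibitor that also works in cell division, rose by 7.96 (SE 0.48, adjusted p = 2.03e-10) in day 7 germinal center cells. Xiap, Birc2 and Birc6 were not called in those comparisons. Of the death receptor genes 5 of 9 were tested. Fas rose by 5.12 (SE 0.53, adjusted p = 2.13e-07) in day 7 germinal center cells, but the follicular cells had been cleared of CD95, its protein, so sort and group cannot be told apart for it. Cflar, which encodes the caspase 8 inhibitor FLIP, fell by 2.08 (SE 0.23, adjusted p = 4.01e-07) in day 7 germinal center cells. Fadd, the adaptor of Fas, rose by 3.06 (SE 0.35, adjusted p = 1.08e-06) in day 40 germinal center cells against memory cells.

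Of 11 genes that control family members 10 were tested. Trp73 passed the filter only through the plasma cell arrays, and of the other 9, 3 rose and 1 fell in stimulated cells (39.3% of all genes called). Myc rose there by 3.58 (SE 0.63, adjusted p = 8.16e-05) and Ddit3, the stress factor CHOP, by 1.55 (SE 0.16, adjusted p = 1.04e-07), while Foxo1 fell as given above. In plasma cells Pim2, a survival kinase, rose by 2.42 (SE 0.19, adjusted p = 2.39e-09), and 4 of the 9 rose and 2 fell in all (42.7% of all genes called). Of 8 p53 target genes 7 were tested. Phlda3 passed the filter only through the stimulated arrays, where it was 5.12, 6.91 and 8.73 against 2.15 on every other array, so it could count only as a rise and is left out of the counts. Of the other 6, 3 rose and none fell in stimulated cells (16.9% of all genes rose), with a median of 1.08 against -0.02 over all genes. The same counts held in plasma cells (20.3% of all genes rose), with a median of 1.19 against -0.05. They also held in day 7 memory cells (9.18% of all genes rose), with a median of 0.90 against -0.04. In the remaining groups 0 to 2 of the 6 rose and none fell, all against follicular cells. Cdkn1a, which encodes the cell cycle inhibitor p21, was 2.67, 2.43 and 2.65 in follicular cells and 10.23, 10.36 and 10.65 in stimulated cells, a rise by 7.83 (SE 0.73, adjusted p = 3.44e-08). Zmat3 rose there by 2.15 (SE 0.41, adjusted p = 2e-04). In plasma cells Cdkn1a rose by 6.40 (SE 0.73, adjusted p = 3.85e-07).

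The genes whose pattern over the 24 arrays was most like that of each member were found by Pearson's r among all genes tested, as a description over arrays that share 8 groups. For Bcl2 they were Irak3 (0.976), Nlrc3 (0.973) and Rnf144a (0.968). For Bcl2l1 they were Elp5 (0.912), Eif4ebp1 (0.906) and Slc1a4 (0.898), and for Bcl2l11 they were Gfi1 (0.87), Mfsd14a (0.859) and Alkbh1 (0.848). Mcl1 was nearest to Slc25a53 (0.877), Bbc3 to Sox12 (0.938), Pmaip1 to Rheb (0.89), Bid to Mdfic (0.894), Bmf to Lmbrd1 (0.925) and Bak1 to Ap1s1 (0.913). No member was among these for another. Between members r was highest for Bcl2l1 with Bbc3 (0.69) and lowest for Bcl2l1 with Mcl1 and Pmaip1 with Mcl1 (both -0.68).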

How the data were processed

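The deposited table, made by the authors, holds 1 value for each of 45101 probe sets on each of 24 arrays. The values are log2 signals from GCRMA, per the submitters' processing notes, with no version given. GCRMA models nonspecific binding and pulls dim probes to a common floor, so changes of dim genes depend on it. RNA was amplified before labelling, per the labels' protocols. Probe sets were named from GEO's platform annotation: 34945 had 1 gene symbol, 932 had several and 9160 had none, and those with several or none and control probe sets were left out. Genes above the array median on at least 3 arrays were tested. One linear model of the 24 arrays with 8 group means (limma 3.58.1, R 4.3.3) gave 14 comparisons, adjusted over all 11208 genes tested. Calls needed an adjusted p under 0.05 and a log2 change of at least 1. A group is at background for a gene when all 3 of its arrays are at or below their own median. All members are named, and of the 6 pathway lists (62 genes) the up to 3 called genes of largest change per comparison described, the cell type markers, and the genes most alike to each member. The members and lists were chosen with earlier results of these data known. Alternatives were the filter, normalization, offset, choice of probe set, prior, array weights, a replicate block, the groups in the fit, the minimum change and leaving out each array. Samples with the same replicate number did not deviate together throughout any comparison (r from -0.496 to 0.445, with every r over 0.1 in 0 of 13 comparisons). The array with the fewest lowest values was replicate 1 in follicular cells and replicate 2 in every other group. Deviations of follicular replicate 1 and of replicate 2 of each other group gave r from 0.078 to 0.497. Between replicates 2 of the immunized groups compared, r was from -0.067 to 0.329. The cause was not tested. Scripts were tested on simulated data. Promoters came from RefSeq (GRCm38.p6) and figures from matplotlib 3.10.9 in Python 3.11.15. The number of arrays limits the precision. Genes matched only by probe sets of several genes, among them Bcl2a1a and Bax, were not analysed here.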

Additional observations from a re-analysis of the deposited data

Results flagged for a closer look

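The difference of Bcl2 between germinal center and memory cells was not the same at the 2 times after immunization. It was -6.20 (SE 0.31) at day 7 and -9.37 (SE 0.31) at day 40, and the interaction term was -3.17 (SE 0.44, adjusted p = 0.000106 by limma over all genes tested). All 3 day 40 germinal center arrays (3.76, 2.49 and 2.57) lay below all 3 day 7 germinal center arrays (5.73, 5.36 and 5.12), and all 3 day 40 memory arrays (12.55, 12.22 and 12.16) lay above all 3 day 7 memory arrays (11.27, 11.81 and 11.74). The term was called on 2 of the 5 Bcl2 probe sets, and over the alternatives for the probe set used and the mean of all 5 it was between -3.58 and -1.75.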

How the results depend on the processing

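Of the 43 called changes of members 29 were called under every alternative in which the gene was tested. Of the 83 not called 56 were called under none of those. Bcl2l1, Bbc3 and Bmf were not tested with the filter at the 75th percentile. Bmf was also not tested with probe sets whose names mark cross-hybridization left out. Other probe sets of the same gene are counted apart. On them 216 checks of a change kept the main result, 33 lost a call, 10 gained one and 7 differed in sign. The rises of Bak1 in day 7 and day 40 germinal center against follicular cells, called under every alternative, were among those lost. The fall of Bcl2 in stimulated, germinal center and plasma cells against follicular cells and in germinal center and plasma cells against memory cells was called under every alternative. The share of all genes called under each alternative is not given here, so the member counts below cannot be set against it. The number of all genes called is given in the next paragraph where it moved by over 1.5 times. The number of members called moved by over 1.5 times as follows. With the filter at the 75th percentile it was 1 in marginal zone against follicular cells, 4 in stimulated against follicular cells, 2 in memory cells between days and 1 in plasma against day 7 memory cells. With a gene's probe sets averaged it was 1 in marginal zone against follicular cells and 1 in germinal center cells between days. In memory cells between days it was 2 with quantile normalization, with a trended and robust prior, with the compared groups alone in the fit and with no minimum change. With no minimum change it was 3 in day 40 memory and 8 in plasma against follicular cells, 4 and 5 in germinal center against memory cells at day 7 and day 40, and 4 in plasma against day 7 memory cells. In day 7 germinal center against memory cells it was 1 with the compared groups alone and 1 without the array with the fewest lowest values in each group, an alternative chosen after seeing the data, and leaving out single arrays gave 1 to 2. With the replicate number as a block it was 2 in memory cells between days, where Bak1 gained a call. The block changed no other count by over 1.5 times. In no comparison did every pair of samples with the same number have r over 0.1.

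The direction turned for Bcl2l11 in plasma against day 7 memory cells with the mean of its probe sets (1.13) and on 1426334_a_at (3.94), and for Bcl2 in day 40 memory against follicular cells on 1440770_at (-1.53) and 1443837_x_at (-1.44) and in plasma against day 7 germinal center cells on 1443837_x_at (0.11). It also turned for Mcl1 in plasma cells on 1416881_at, against follicular (1.04), day 7 memory (1.17) and day 7 germinal center cells (1.82). The probe set used gave -0.14 for Bcl2l11, 0.12 for Bcl2 in day 40 memory cells and -0.42, -0.01 and -0.01 for Mcl1, none of them called. These were thus called changes against uncalled ones, not opposite calls. For Bcl2 in plasma against day 7 germinal center cells it gave a called -2.01, and the 0.11 was not called. The cause was not tested. Over all genes, the count called with no minimum change rose against follicular cells from 1237 to 1956 in marginal zone, from 2060 to 3686 and from 1543 to 2617 in day 7 and day 40 memory, and from 3474 to 5682 and from 3636 to 5796 in day 7 and day 40 germinal center cells. For germinal center against memory cells it rose from 2655 to 4672 at day 7 and from 3128 to 5298 at day 40. Between days it rose from 563 to 1141 in memory and from 665 to 1008 in germinal center cells. With the stricter filter it was 805 in marginal zone cells, 366 between days in memory and 428 in germinal center cells, and 354 for the interaction (555 otherwise). With array weights it was 908 between days in memory cells and 975 for the interaction. With the compared groups alone it was 199 between days in memory and 425 in germinal center cells, and without the arrays with the fewest lowest values 290 between days in memory cells and 342 for the interaction. Signals near the floor limit what can be said of Bbc3, Bik and the low Bcl2 groups.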

Other observations

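Against follicular cells, 9 genes of the pathway lists were called in both memory groups. Of all genes 18.4% were called at day 7 and 13.8% at day 40. These shares are for each day alone. The share of all genes called at both days is not given here, so the 9 cannot be set against it. Birc5 (5.51 and 4.15), Fas (4.35 and 4.06, with follicular cells cleared of its protein), Cdkn1a (2.45 and 4.84), Myc (2.38 and 3.07) and Fbxw7 (1.52 and 1.36) were higher. In day 7 memory cells Birc5 was 13.42, 10.76 and 10.93 and Fas, also a germinal center marker here, 12.71, 11.77 and 11.55. Replicate 1, highest for both, was the array with the high Gcsam signal given above. Cdkn1a was 6.28, 3.41 and 5.40 at day 7 and 9.32, 5.53 and 7.42 at day 40. Myc was 11.62, 13.89 and 14.27 at day 40. Tnfrsf1b, which encodes a receptor for tumour necrosis factor without a death domain, rose by 3.54 (SE 0.45, adjusted p = 7.76e-06) in day 7 and by 3.31 (SE 0.45, adjusted p = 2.31e-05) in day 40 memory cells, and fell by 3.48 (SE 0.45, adjusted p = 7.94e-06) and by 3.84 (SE 0.45, adjusted p = 1.51e-06) in germinal center cells against memory cells of the same day. Fadd fell by 1.93 (SE 0.35, adjusted p = 0.000311) and by 2.29 (SE 0.35, adjusted p = 8.34e-05) in the memory groups. Pim1, a kinase of survival signalling, rose by 2.11 (SE 0.32, adjusted p = 4.64e-05) and by 1.79 (SE 0.32, adjusted p = 0.00036), and Sesn2, a stress response gene, by 2.94 (SE 0.34, adjusted p = 2.30e-06) and by 1.84 (SE 0.34, adjusted p = 0.000503).

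From day 7 to day 40 germinal center cells, Cdkn1a rose by 4.60 (SE 0.73, adjusted p = 0.000269), with arrays at 2.89, 3.41 and 2.38 on day 7 and at 8.03, 6.32 and 8.12 on day 40. No other gene of the 6 lists was called in that comparison.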
